A study of Mus musculus with 3 samples.

Results

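The 4 genes described here encode a membrane-anchored serine protease, Prss8, and 3 proteins of inhibitor families, Spint2, Wfdc2 and Wfdc15b. They were chosen by gene symbol, with the ratios they had on these arrays known, from the 3915 genes that had a value on all 3 arrays. All 4 were among those 3915 genes, each through 1 probe. Each array compared RNA of 2 cell fractions sorted from the kidneys of HoxB7-GFP transgenic mouse embryos at 15.5 days post coitum, with both sexes pooled. The GFP+ fraction holds cells in which the Hoxb7 promoter drives green fluorescent protein, the ureteric tree, and the GFP- fraction holds all remaining kidney cells. Both fractions came from animals that carry the transgene, so neither is a wild-type control. The sources used here give neither the number of embryos in a pool nor their strain.

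Prss8, also called prostasin, is a trypsin-like protease held at the surface of epithelial cells by a lipid anchor. It is known as a channel-activating protease: its activity raises the sodium current of the epithelial sodium channel, which reabsorbs sodium in the collecting duct, the later product of the ureteric tree. Prss8 acts in 1 network with the transmembrane protease matriptase (St14). Spint2 and the related Spint1 are membrane proteins whose Kunitz domains block both proteases. The whey acidic protein (WAP) domain is a small fold held by disulfide bonds that many secreted inhibitors of serine proteases share, among them Slpi. Wfdc2 and Wfdc15b are secreted proteins with such domains, and Wfdc2 is made by several ductal epithelia.

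Values were log2 ratios, likely of GFP+ over GFP- cells: the sample titles set the GFP+ tree against the rest and the labels give it as the first channel, but they name no dye for either. If the ratios ran the other way, every sign given here would turn and every rank would count from the low end. The arrays gave a value for 5179, 4980 and 6187 gene features, and no raw signals were analysed, so signal over background is unknown. Array 1 stood apart. Over the 3915 genes, which are not independent replicates, its ratios had a Pearson's r of 0.080 with array 2 and 0.277 with array 3, whereas arrays 2 and 3 had an r of 0.883. The means, ranks and differences of the members, the counts over lists and the named calls that change are therefore also given without array 1. In the direction used, the ureteric transcription factor Gata3 (2.35 ± 0.39, SD, n = 3 arrays) and the epithelial keratin Krt8 (2.08 ± 0.28) had positive log2 ratios on every array. The leukocyte glycoprotein Cd52 (-2.84 ± 0.28) and the stromal proteoglycan Dcn (-1.61 ± 0.26) had negative ones on every array.

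In this likely direction all 4 members had more signal in GFP+ cells, by a mean of 2.76- to 5.73-fold, and on each of the 3 arrays the log2 ratio of every member lay above 1. Across all genes, 26 of 3915 (0.664%) did so. Because the members were picked from this same contrast, these values are a description and carry no test. In sorted bulk RNA, a larger share of cells with a transcript and more transcript per cell cannot be told apart.

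Prss8, the protease of the group, had log2 ratios of 1.28 on array 1, 1.67 on array 2 and 1.45 on array 3. Its mean was 1.47 ± 0.20 (SD, n = 3 arrays), a signal 2.76 times as high in GFP+ cells as in GFP- cells. It was the lowest of the 4 members on every array, and it was lowest on array 1. Spint2, the Kunitz-type inhibitor, had 1.74, 2.09 and 2.09 on arrays 1, 2 and 3, a mean of 1.97 ± 0.20 or 3.92-fold. Arrays 2 and 3 gave nearly the same value and array 1 a lower one.

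Among the secreted WAP-domain proteins, Wfdc15b had the highest ratio of the 4 genes on every array. Its log2 ratios were 2.38, 2.48 and 2.70, with a mean of 2.52 ± 0.16 or 5.73-fold. Wfdc2 had 1.62, 1.88 and 2.23, a mean of 1.91 ± 0.30 or 3.76-fold. Its values spanned 0.61 on the log2 scale, the widest range of the 4, while those of Wfdc15b spanned 0.32.

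**Figure D1:**
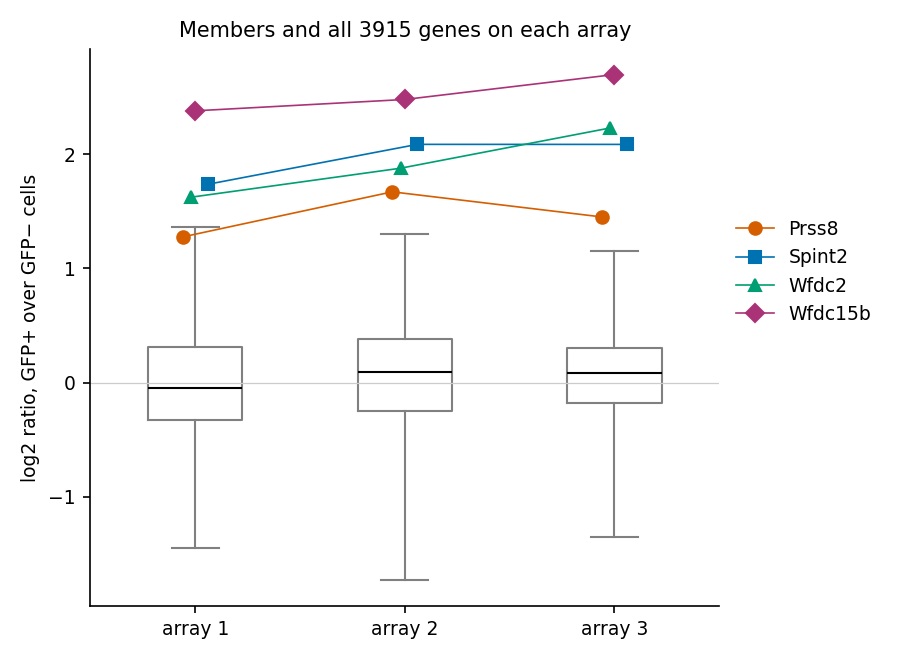
Log2 ratios (GFP+ over GFP- cells, vertical axis) of Prss8, Spint2, Wfdc2 and Wfdc15b on each of the 3 arrays; lines join the values of a gene, and the grey boxes show the median, the quartiles and, as whiskers, the central 98% of all 3915 genes. The members lie between 1.28 and 2.70, far above the medians of all genes (-0.044, 0.089 and 0.083), with Wfdc15b on top and Prss8 at the bottom of the 4 on every array; only Prss8 on array 1 lies inside the whiskers.

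The order of the members was partly stable within arrays. The log2 ratio of Wfdc15b exceeded that of Prss8 by 1.10, 0.81 and 1.25 on arrays 1, 2 and 3, a mean of 1.05 ± 0.22. It exceeded that of Spint2 by 0.64, 0.39 and 0.61, and that of Wfdc2 by 0.76, 0.60 and 0.47. Each of these 3 differences was larger than its SD and had the same sign on every array. Spint2 exceeded Prss8, a protease it inhibits, by 0.46, 0.42 and 0.64, a mean of 0.50 ± 0.12, so the inhibitor's ratio was 1.42 times that of the protease. Wfdc2 exceeded Prss8 by 0.35, 0.21 and 0.78 (0.44 ± 0.30). Spint2 and Wfdc2 did not differ beyond their spread: the difference, Wfdc2 minus Spint2, was -0.11, -0.21 and 0.14, with a mean of -0.059 ± 0.18. Without array 1 the mean differences kept their signs: Wfdc15b exceeded Prss8 by 1.03, Spint2 by 0.50 and Wfdc2 by 0.53, Spint2 exceeded Prss8 by 0.53, Wfdc2 exceeded Prss8 by 0.49, and Wfdc2 minus Spint2 was -0.032. These are differences between enrichments. They say nothing of which transcript was more abundant, since signals of different probes cannot be set against each other.

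Array 1 gave the lowest ratio of the 3 arrays for all 4 members, by 0.28 for Prss8, 0.35 for Spint2, 0.43 for Wfdc2 and 0.21 for Wfdc15b relative to the mean of arrays 2 and 3. Without array 1 the means were 1.56, 2.09, 2.05 and 2.59 in that order, each within 1 SD of the mean over 3 arrays. The SD of Prss8, Spint2 and Wfdc15b was below the median SD of all genes, 0.31, and that of Wfdc2 was close to it at 0.30. Among the 50 genes with a mean log2 ratio above 1, the median SD was 0.298. Of these 50, 9 had a lower SD than Prss8, 10 than Spint2, 26 than Wfdc2 and 7 than Wfdc15b. The members were chosen from these same ratios, so their agreement between arrays is a description and no test.

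**Figure D2:**
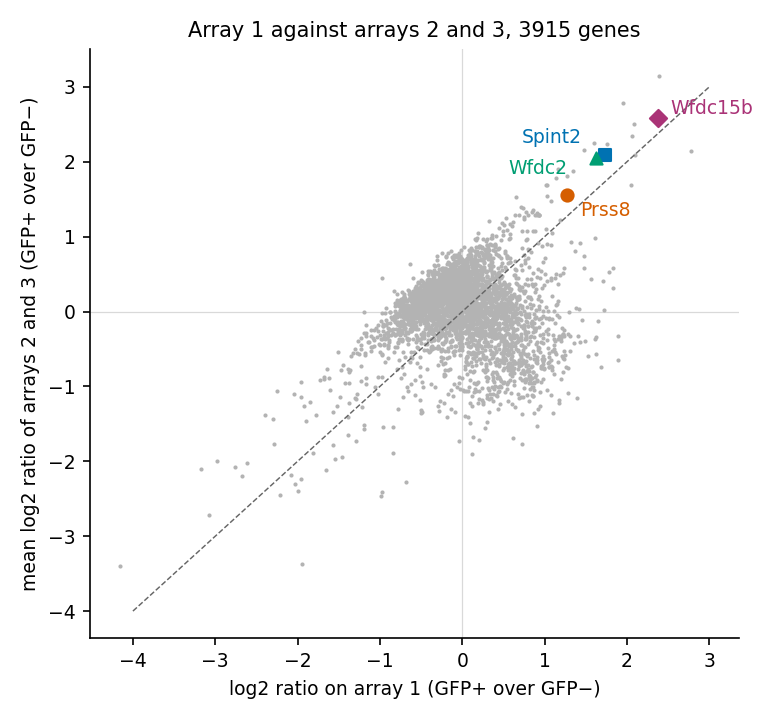
Each point is 1 of 3915 genes, with its log2 ratio on array 1 on the horizontal axis and the mean log2 ratio of arrays 2 and 3 on the vertical axis; the dashed line marks equal values. The cloud has little common direction (Pearson's r = 0.172). The 4 coloured members lie at the upper right, slightly above the line. They were chosen from these ratios, so their place is a description and no test.

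By mean log2 ratio among the 3915 genes, Wfdc15b ranked 3, Spint2 ranked 11, Wfdc2 ranked 13 and Prss8 ranked 20, where rank 1 is the highest. On arrays 1, 2 and 3, Wfdc15b ranked 4, 5 and 4. Spint2 ranked 16, 11 and 12. Wfdc2 ranked 22, 14 and 9, and Prss8 ranked 51, 21 and 23. Thus 3 of the 4 members stayed within the first 39 ranks, the top 1% of genes, on every array. Prss8 left it on array 1 alone. Of all genes, 14 were within the top 1% on every array. Without array 1 the ranks by mean were 4, 11, 13 and 21 for Wfdc15b, Spint2, Wfdc2 and Prss8.

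**Figure D3:**
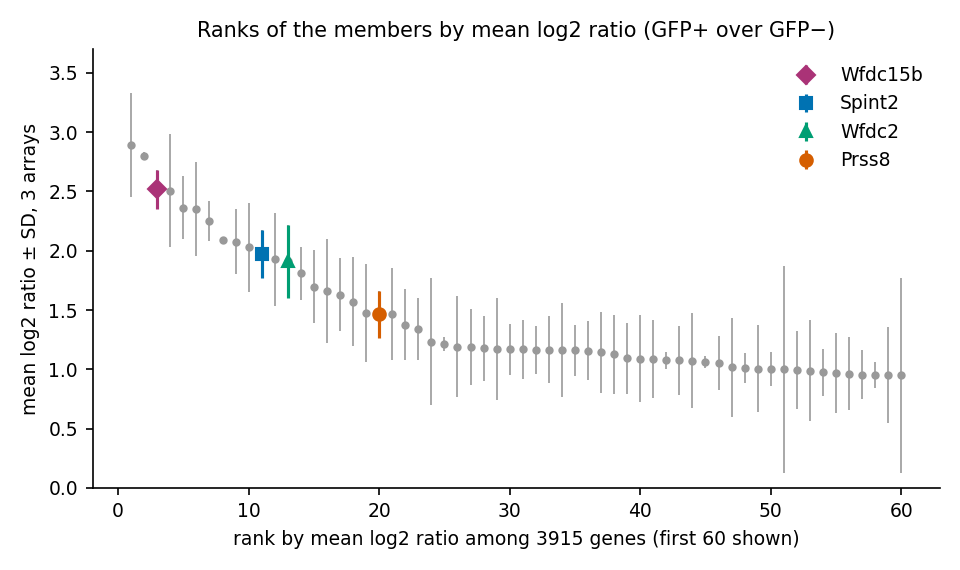
Mean log2 ratio (vertical axis; bars are ± 1 SD over 3 arrays) of the 60 highest of 3915 genes by rank (horizontal axis), with the members in colour. Wfdc15b sits at rank 3, Spint2 and Wfdc2 at ranks 11 and 13 with overlapping bars, and Prss8 at rank 20.

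Genes with the most similar values over the 3 arrays were found by Euclidean distance between the log2 ratios, a description over 3 points. The nearest to Spint2 were Krt8 (distance 0.216), the tight junction protein Cldn3 (0.270) and Wfdc2 (0.278). Wfdc2 in turn lay nearest to Spint2, followed by Bex1 (0.357) and Krt8 (0.361). Prss8 lay nearest to the apolipoprotein Apoc1 (0.234), the homeobox gene Hoxd4 (0.266) and the calpain Capn5 (0.313). Spint2, an inhibitor of Prss8, was number 38 in that order, at 0.888. In the order from Spint2, Prss8 was number 13 at the same distance. For Wfdc15b the nearest were Cldn7 (0.445), ccdc198 (0.478) and Fxyd4 (0.540), all farther away than the neighbours of the other members.

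Promoter sequence from RefSeq was at hand for 3 of the 4 members. The 250 bases upstream of the start are shown because these promoters differ widely in composition. Coordinates are those of GRCm38.p6: Spint2 at chr7:29281978-29282227 on the minus strand, Wfdc2 at chr2:164562465-164562714 on the plus strand and Wfdc15b at chr2:164221664-164221913 on the minus strand. Capitals mark matches, on either strand, to the motifs searched.
Spint2: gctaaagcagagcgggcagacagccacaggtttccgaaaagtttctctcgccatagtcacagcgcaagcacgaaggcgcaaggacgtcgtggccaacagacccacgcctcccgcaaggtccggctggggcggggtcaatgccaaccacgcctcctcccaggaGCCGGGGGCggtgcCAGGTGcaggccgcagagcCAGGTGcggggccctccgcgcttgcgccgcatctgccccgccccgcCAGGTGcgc
Wfdc2: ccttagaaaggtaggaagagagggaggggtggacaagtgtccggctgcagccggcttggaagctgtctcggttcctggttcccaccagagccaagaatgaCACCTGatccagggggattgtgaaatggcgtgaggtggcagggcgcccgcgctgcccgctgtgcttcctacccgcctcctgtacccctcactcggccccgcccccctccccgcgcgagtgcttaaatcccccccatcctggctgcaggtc
Wfdc15b: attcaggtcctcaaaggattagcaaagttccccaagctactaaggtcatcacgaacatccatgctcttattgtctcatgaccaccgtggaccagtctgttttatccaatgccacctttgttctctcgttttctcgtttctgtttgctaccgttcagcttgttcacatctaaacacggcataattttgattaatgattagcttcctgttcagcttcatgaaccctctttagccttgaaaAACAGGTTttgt

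The motifs were chosen after these sequences had been read. Searches covered 300 bases per gene, of which the last 50 follow the start and are not shown, and the same windows of 27025 genes gave the background. The E-box CAGGTG, the form bound by the Snail and Zeb repressors, occurred 3 times in the Spint2 window, at -74, -55 and -9 relative to the start, and 0.355% of all windows hold 3 or more. Wfdc2 had 2 such boxes, of which the upstream box, at -150, is shown, and Wfdc15b had 0. At least 1 was found in 20.05% of all windows. The AP-2 factor motif GCCNNNGGC occurred once in Spint2, at -88, once in Wfdc2 past the start, where it is not shown, and in 16.5% of windows. In Wfdc15b the single match was to the grainyhead-like motif AACCNGTT at -12, which 2.02% of windows hold. The motif AGATAA, read by factors of the GATA family, was in none of the 3 windows and in 11.4% of all windows. The TATA box TATAAA was likewise in none of the 3 and in 14.2% of all. G and C made up 69.3% of the Spint2 window, 65.3% of the Wfdc2 window and 42.3% of the Wfdc15b window, against a median of 52.7%. The motifs overlap with none of each other in these windows. A match is a run of letters and was not tested for binding.

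Of the members' closest relatives, many had no value. Matriptase (St14), Spint1, Slpi and the channel subunits Scnn1a, Scnn1b and Scnn1g each had a probe on the array, and each was listed without a value on any of the 3 arrays. The table holds a value on some array for 6526 of 21819 gene features, and by which rule the authors filtered it is unknown, so an empty entry is not a measured absence. Besides Wfdc2 and Wfdc15b, 10 other WAP-domain genes had a probe and 0 of them had a value. Among Kunitz-domain genes the amyloid precursor App had 0.51 and 0.11 on arrays 2 and 3, and the collagen chain Col6a3 had -1.48 on array 3. Both are named after their values were seen. Of 18 other membrane-anchored and tryptase-like proteases on the array, 0 had a value on all 3 arrays and 3 had a value on 1 or 2.

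Few other proteases and inhibitors could be tested, and 0 of the 13 in the next 3 lists passed. The test was limma against 0 over all 3915 genes with Benjamini-Hochberg adjustment. It called 54 genes (1.38%) higher and 55 (1.40%) lower in GFP+ cells. Without array 1 it called 1080 (27.6%) and 738 (18.9%), so list counts without that array are to be read against these larger shares. At an unadjusted p below 0.05, limma had 331 genes (8.45%) higher and 251 (6.41%) lower, and an ordinary statistic per gene had 284 (7.25%) and 187 (4.78%). Of 5 secreted serine proteases and proprotein convertases measured on all 3 arrays, 0 passed, also 0 at an unadjusted p below 0.05 by limma or by the ordinary statistic. The list comprised Klk8 (0.32 ± 0.28), Plat, the tissue plasminogen activator (0.24 ± 0.37), Htra1 (0.080 ± 0.62), Htra2 (-0.29 ± 0.46) and Mbtps1 (-0.34 ± 0.28). Their median was 0.080, against 0.034 for all genes. Without array 1, 2 of them were called higher, Klk8 (limma adjusted p = 0.0136) and Plat (0.018), and Mbtps1 lower (0.0114), with a median of -0.031.

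Serpins, inhibitors that trap their protease, gave 3 measured genes: Serpina1d (0.22 ± 0.23), Serpini2 (0.032 ± 1.05) and Serpina1b (-0.41 ± 0.28). Limma called 0 of them, also at an unadjusted p below 0.05, as did the ordinary statistic. Serpini2 had 1.24 on array 1 and -0.52 and -0.63 on arrays 2 and 3, and it was called lower without array 1 (-0.57, limma adjusted p = 0.0079). Serpina1 genes are near-identical copies, so signal may be shared between their probes. Of 5 measured inhibitors of other families, limma called 0, with 1 higher and 1 lower at an unadjusted p below 0.05 and 1 higher and 0 lower by the ordinary statistic, unadjusted, against 8.45% and 6.41% of all genes by limma and 7.25% and 4.78% by the ordinary statistic. Cstb, an inhibitor of lysosomal cysteine proteases, had 0.16, 1.15 and 0.79 (mean 0.70 ± 0.50, limma adjusted p = 0.232, and 0.00368 without array 1, where its mean was 0.97). Timp1, an inhibitor of matrix metalloproteases, had -0.92, -0.18 and -0.38 (-0.49 ± 0.38, adjusted p = 0.327 in the same fit). Spink1 (0.30 ± 0.11), Pebp1 (0.25 ± 0.20) and Pi16 (0.086 ± 0.44) were nearer to 0. The median of these 5 was 0.25, below that of each member, and without array 1, Cstb and Pi16 (0.33, limma adjusted p = 0.0498) were called higher and 0 lower.

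In the list of the epithelial sodium channel and its regulators, 15 of 54 genes had a value on each array, and limma called 1 higher. Fxyd4, a small subunit that tunes the sodium-potassium pump, had 1.95, 2.80 and 2.76, a mean of 2.51 ± 0.48 or 5.69-fold (limma adjusted p = 0.00531). Its mean was close to that of Wfdc15b, but each of its ratios lay outside the range of Wfdc15b, 2.38 to 2.70. Nedd4, a ubiquitin ligase of a family that removes the channel from the membrane, had -0.78, -0.22 and -0.34 (-0.45 ± 0.29, limma adjusted p = 0.332). Oxsr1, a kinase of the WNK pathway of salt transport, had 0.42, -1.21 and -0.47, with array 1 of opposite sign to the others, and without array 1 it was called lower (-0.84, limma adjusted p = 0.0166). The kinase subunit Csnk2a1 had 0.52, 0.85 and 0.77 (0.71 ± 0.17, limma adjusted p = 0.102, and 0.0032 without array 1, where its mean was 0.81). The median of the 15 was 0.13, against 0.034 for all genes, and 10 had a positive mean. At an unadjusted p below 0.05, limma had 2 of the 15 higher and 1 lower, and the ordinary statistic 3 higher and 0 lower. The shares of all genes were 8.45% and 6.41% by limma and 7.25% and 4.78% by the ordinary statistic. Without array 1, 6 were called higher, Fxyd4 and Csnk2a1 among them, and Oxsr1 lower. Named after its value was seen, the pump subunit Atp1b1 had 1.33 on array 3 alone.

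Among 8 measured substrates and partners of matriptase, prostasin and their inhibitors, 1 rose. Cldn7, a claudin bound by the adhesion protein Epcam, which matriptase cleaves, had 2.09, 2.62 and 2.39, a mean of 2.36 ± 0.27 or 5.15-fold (limma adjusted p = 0.00321). The proteoglycan Sdc1 (-0.15 ± 0.54), the membrane metalloprotease Mmp14 (-0.34 ± 0.44) and Gpld1 (0.32 ± 0.33), an enzyme that cuts lipid anchors such as that of Prss8, did not pass. Met, the receptor of hepatocyte growth factor and named after its values were seen, had 1.23 on array 1 against -0.67 and -0.60 on arrays 2 and 3. Its mean was -0.0098 ± 1.08. It was called lower without array 1 (-0.63, limma adjusted p = 0.00582). Over the 8 genes the median was 0.067, and without array 1, 3 genes were called higher, among them Cldn7 and Gpld1 (0.51, limma adjusted p = 0.0108), and 2 lower, Met and Sdc1 (-0.44, limma adjusted p = 0.0322).

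The list of metalloproteases and other peptidases of the cell surface and matrix had 7 measured genes, of which 6 are metalloproteases and 1, Dpp4, is a serine-type peptidase. Limma called 0 of the 7 higher and 1 lower. At an unadjusted p below 0.05 the single higher gene, by limma and by the ordinary statistic, was Dpp4. Mmp23, a membrane-linked matrix metalloprotease, had -1.43, -1.01 and -0.89, a mean of -1.11 ± 0.28 (limma adjusted p = 0.0367), and it missed the threshold without array 3 (adjusted p = 0.0791). Dpp4 had 0.44, 0.94 and 0.76 (0.72 ± 0.25, limma adjusted p = 0.127). Adam17, the sheddase of growth factors and cytokines, had a mean of 0.27 ± 0.25. The median of this list was -0.045, and without array 1 the 2 called higher were Dpp4 (0.85, limma adjusted p = 0.00336) and Adam17 (0.41, limma adjusted p = 0.0178), with Mmp23 lower. Fxyd4 and Cldn7 were known from earlier results of these data, so their calls add no independent evidence about the members.

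**Figure D4:**
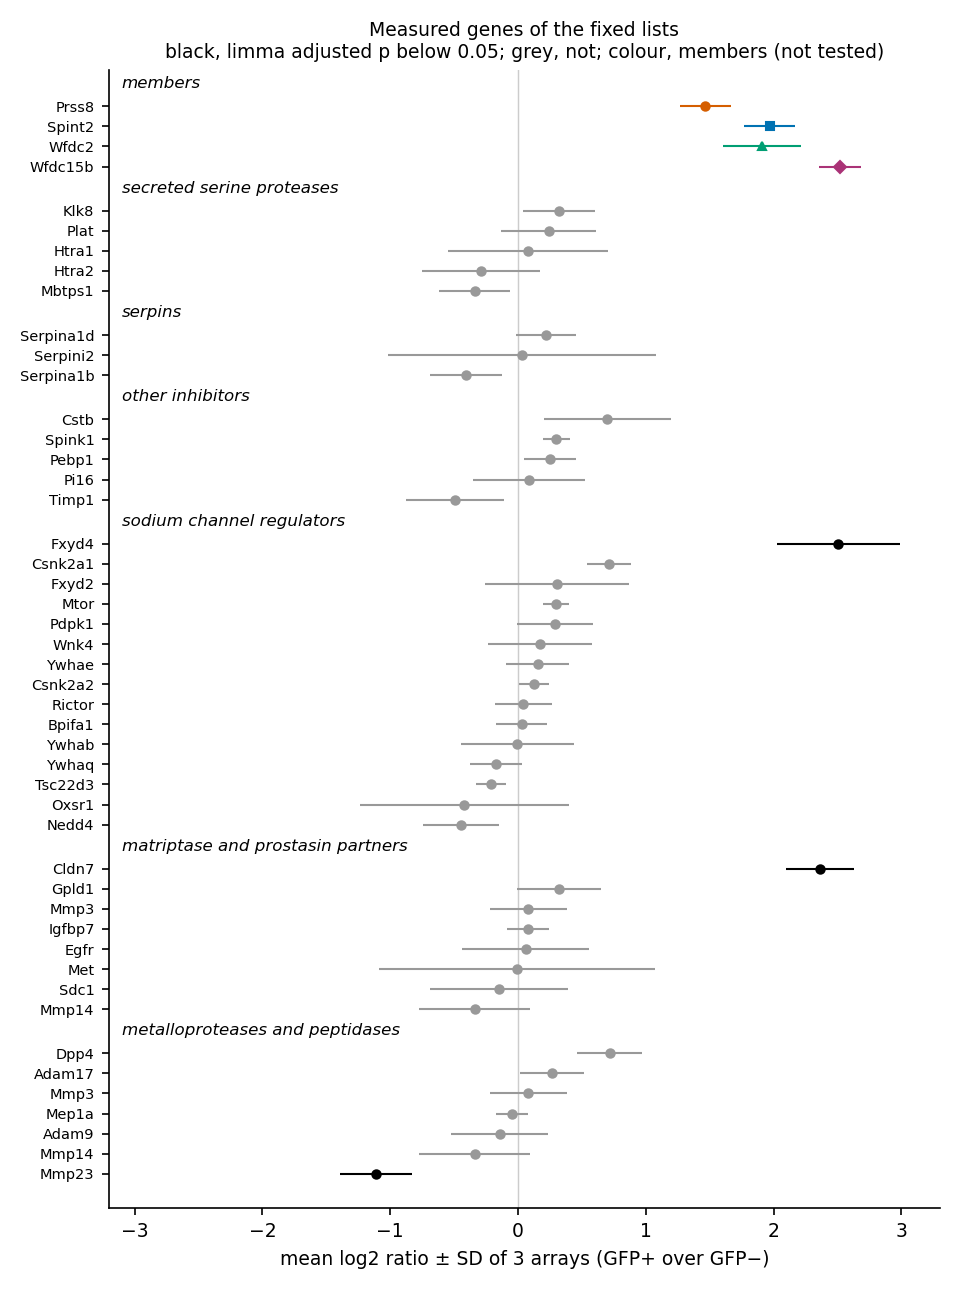
Mean log2 ratio (GFP+ over GFP- cells, horizontal axis; bars are ± 1 SD over 3 arrays) of the members and of the list genes measured on all 3 arrays, grouped by list; black points passed limma's adjusted threshold, grey points did not, and the coloured members were not tested. Fxyd4 and Cldn7 lie in the range of the members, Mmp23 lies at -1.11, and the grey genes lie between -0.49 and 0.72.

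Few genomic neighbours of the members were measured, and 0 of the 6 with values on all 3 arrays passed limma's threshold. Of all genes, 1.38% passed as higher and 1.40% as lower. In the order of protein-coding genes in RefSeq, Wfdc2 and Wfdc15b lie in a cluster of WAP-domain and seminal vesicle genes on chromosome 2, and Prss8 and Spint2 lie apart on chromosome 7. Of the 5 genes on each side of Wfdc2, 6 were on the array and 0 had a value. Around Wfdc15b, 8 were on the array, and the single value was that of Svs3a on array 3 (0.36). Around Prss8, 4 neighbours had values on all 3 arrays: Vkorc1 (0.00058 ± 0.45), Bckdk (-0.43 ± 0.46), Kat8 (-0.12 ± 0.56) and Pycard (0.33 ± 0.29). Prss36, the next protease gene beside Prss8, had -0.32 on array 1 alone. Around Spint2, Psmd8 (-0.14 ± 1.08) and Yif1b (-0.054 ± 0.44) had values on all 3 arrays, and Ppp1r14a, the next gene beside Spint2, had -1.66 on array 3 alone, the neighbour value farthest from 0. At an unadjusted p below 0.05, 0 of the 6 passed by limma and 0 by the ordinary statistic. The shares of all genes were 8.45% higher and 6.41% lower by limma, and 7.25% and 4.78% by the ordinary statistic. Without array 1, limma called Pycard higher (0.49, adjusted p = 0.0139) and Kat8 (-0.45, adjusted p = 0.0145) and Psmd8 (-0.74, adjusted p = 0.016) lower. That fit called 27.6% of all genes higher and 18.9% lower, so such calls were common. These neighbours were chosen after the members' values were known.

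Most macrophage and stroma markers fell, opposite to the members. Most cap mesenchyme, erythroid and endothelium markers also had negative means, though a smaller share of them was called. Over all genes, limma called 1.38% higher and 1.40% lower. Of 7 measured macrophage and leukocyte markers 6 fell, with medians of -1.95, -1.98 and -2.02 on arrays 1, 2 and 3. Of 5 measured stroma markers 4 fell, with medians of -1.95, -1.94 and -1.58. Of 8 measured cap mesenchyme and early nephron markers limma called 3 lower, and 7 had a negative mean (list median -1.08). At an unadjusted p below 0.05, 6 were lower by limma and 6 by the ordinary statistic, against 6.41% and 4.78% of all genes. Of 4 erythroid markers limma called 2 lower, and 3 had a negative mean (list median -1.24). Of 7 endothelium markers limma called 0, and all 7 had a negative mean (list median -0.31). With p left unadjusted at 0.05, 2 were lower by limma and 2 by the ordinary statistic, against 6.41% and 4.78% of all genes. Of 6 measured ureteric epithelium markers, Gata3, Krt8, Cldn3 and Cldn7 rose, with list medians of 1.68, 2.10 and 2.24 on arrays 1, 2 and 3. The others, named after their values were seen, were Etv5 (0.29 ± 0.37) and Grhl2 (-0.17 ± 0.26), and limma called neither. Without array 1, 7 macrophage, 5 stroma, 6 cap mesenchyme, 3 erythroid and 1 endothelium markers were lower and 5 ureteric epithelium markers higher. In that fit 1 cap mesenchyme marker, Osr1 (0.33, limma adjusted p = 0.0399), and 1 erythroid marker, Tfrc (0.46, limma adjusted p = 0.0146), were also higher. It called 27.6% of all genes higher and 18.9% lower. The single endothelium marker called lower and the single cap mesenchyme and erythroid markers called higher lie below these shares. Over all 3 arrays Tfrc had 0.20, 0.40 and 0.53 and Osr1 a mean of 0.17 ± 0.28, and limma called neither. The defining markers Hoxb7, Ret and Six2 had no value. The part that the purity of the sort plays in the members' ratios was not tested.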

How the data were processed

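Amplified RNA of both fractions was labelled and hybridised together on each of 3 Mouse Compugen oligonucleotide arrays, without a dye swap, per the labels. Images were read with Imagene 5.5. The authors fitted a Lowess curve of log ratio on log intensity with 20% of the data per local fit, adjusted the control channel by it and raised control values under 10 to 10, per the labels, which can shrink a ratio whose control signal is low. The deposited values are log2 ratios: 2 to the power of the value was a whole number of thousandths, within 0.01 of a thousandth, for 99.97% of values. The deposited table is described as filtered, by a rule not given in the sources used here.

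Probe symbols came from GEO's platform annotation, updated through gene identifiers to RefSeq of GRCm38.p6 for 15970 of 16656 gene features with 1 symbol. Probes of a gene were averaged, giving 3915 genes from 3987 probes with values on all 3 arrays. In R 4.3.3, limma 3.58.1 tested each mean log2 ratio against 0 (intercept only, two-sided, Benjamini-Hochberg over all genes, threshold 0.05). The fit was also run on simulated arrays that were independent and had equal variance within each gene. The measured arrays were less alike, with array 1 apart, so the simulation cannot give the error rate of the test here. The members and lists were chosen with earlier results of these data known. The text names all members, called list genes, the 4 list genes of largest absolute mean (all where 6 or fewer were measured), and the 3 nearest genes of each member; others are marked. Errors are SDs. Whether each array had its own pool of embryos is unstated in the labels, so p-values measure the spread between arrays, which may be technical. Alternatives left out arrays, changed the normalization, weights, statistic, required values or probe handling, or averaged arrays 2 and 3.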

Additional observations from a re-analysis of the deposited data

How the results depend on the processing

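Each ratio already pairs both fractions on the same array, so the test against 0 is a paired one. The 3 arrays form 1 group of ratios, and no further pairing was modelled. The number of arrays (3), unknown signal over background and the absence of a dye swap limit every value. The means of the 4 members moved by less than 1 SD under every alternative that gives a mean. The rank of Wfdc15b was 3 or 4 when arrays were left out, 4 with array weights and 6 with values on at least 2 arrays. In that last setting Spint2 ranked 16, Wfdc2 ranked 19 and Prss8 ranked 28. Over all genes, leaving out arrays gave 23 to 1080 higher and 51 to 738 lower. Array weights gave 1309 and 861, the ordinary statistic 1 and 0 (284 and 187 at an unadjusted p below 0.05), arrays 2 and 3 averaged 29 higher, and quantile normalization 84 lower.

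For the lists, leaving out arrays gave 0 to 2 higher and 0 to 1 lower secreted proteases (median -0.031 to 0.18), 0 to 1 lower serpins, 0 to 2 higher other inhibitors (median 0.17 to 0.30), 1 to 6 higher and 0 to 1 lower channel regulators, 1 to 3 higher and 0 to 2 lower matriptase and prostasin partners (median 0.048 to 0.13), and 0 to 2 higher and 0 to 1 lower metalloproteases and surface peptidases. For markers it gave 0 to 1 higher and 4 to 6 lower in cap mesenchyme, a macrophage median of -2.0001 to -1.85, 0 to 1 higher erythroid and 0 to 1 lower endothelium. Array weights gave 2 higher and 1 lower secreted proteases (median -0.098), 2 lower serpins, 4 higher and 1 lower other inhibitors, 6 higher and 2 lower channel regulators, 3 higher and 2 lower partners (median 0.13), 2 higher metalloproteases and surface peptidases, 1 higher and 6 lower cap mesenchyme markers, a stroma median of -1.69, a macrophage median of -2.03, 1 higher erythroid marker and 4 lower endothelium markers. The ordinary statistic called 0 in every list after adjustment. Centring, scaling and quantile normalization each gave 5 lower cap mesenchyme markers, and scaling a macrophage median of -1.99. With values on at least 2 arrays the secreted protease median was -0.11, the macrophage median -1.91 and the erythroid median -2.15, with 1 endothelium marker lower. Averaging arrays 2 and 3 gave a macrophage median of -1.88. Serpini2 turned from 0.032 to -0.57 without array 1 (range when arrays were left out -0.57 to 0.36) and to -0.55 with array weights. The cause of these changes was not tested.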
